A study of Mus musculus with 8 samples.

Results

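The scavenger receptors and alternative activation genes described here were *Mrc1*, *Cd163*, *Msr1*, *Marco*, *Folr2*, *Lyve1*, *Mgl2*, *Retnla*, *Chil3* and *Clec10a*, 10 of the 32285 genes counted. They were chosen by symbol from a list, and every one was found once in each library. Scavenger receptors are surface proteins of macrophages that bind modified lipoproteins, bacterial surfaces, hemoglobin complexes or sugar chains and carry them into the cell. Alternative activation is the state that macrophages take when interleukin-4 or interleukin-13 signals through STAT6, and the mannose receptor, the galactose-type lectins and the secreted proteins of *Retnla* and *Chil3* are its usual mouse markers. Several of these genes also mark macrophages that live in tissues for long periods, and others are used by monocytes or dendritic cells, so the cell in which each was found is given first.

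The libraries held CD45+ immune cells of mammary tumors collected on day 18, with 1 tumor per mouse. The tumors grew from E0771, a triple-negative mammary carcinoma line that is implanted in C57BL/6 mice, or from E0771-Res1 and E0771-Res2, each a single line grown from an E0771 tumor that relapsed after paclitaxel and an anti-PD-1 antibody. Used here were 2 parental mice (replicates 1 and 3), 3 E0771-Res1 mice and 3 E0771-Res2 mice, and another parental mouse of the study was not analysed here. As each is 1 line, its resistance cannot be told apart from its other features.

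Of 11430 deposited cells, 10605 had 500 to 6000 detected genes and under 10% mitochondrial counts and were kept. The mice gave 5036667 to 18894504 unique molecular identifiers (UMIs, counts of single captured molecules). The paper states that tagged cells of the 3 kinds of tumor were pooled, so cells were assigned to mice by tag. That the mice shared 0 cell barcodes follows from this and is no check of separate libraries. Cells were gated on marker genes that were not among the 10. Macrophages had at least 10 UMIs of *C1qa* (2602 cells), monocytes had at least 3 of *Ly6c2* and at most 2 of *C1qa* (3206 cells), and dendritic cells had at least 3 over 7 dendritic cell genes (199 cells). Levels are CPM, the UMIs of a gene scaled to a gate total of 1000000 per mouse. Markers outside the gates followed the names. *C1qb* had a median over mice of 5915 CPM in macrophages and 251 in monocytes, *Plac8* had 5347 in monocytes and 756 in macrophages, and *Ccl22* had 204 in dendritic cells and 5.37 in macrophages, but *Ccl17* had a median of 0 in dendritic cells. E0771-Res2 cells were shallower, with medians of 5589 to 7001 UMIs per kept cell against 7631 to 8160 in the other mice.

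*Mrc1* (chr2:14229392-14332057, plus strand, GRCm38, as all positions here) encodes the mannose receptor CD206, which binds mannose-bearing glycoproteins. Macrophages held 62.2% of its 8445 UMIs and monocytes 14.0%. Its level in macrophages was 175 and 113 CPM in the parental mice, against 358, 317 and 204 for E0771-Res1 and 156, 239.8 and 143 for E0771-Res2. In monocytes of the same mice it was 85.8 and 42.4, then 66.6, 91.1 and 71.6, then 49.4, 46.3 and 41.0. Macrophages were higher than monocytes in every mouse, and across mice the highest monocyte value lay below the lowest macrophage value. Means were 213 ± 86.3 CPM (SD, n = 8) in macrophages and 61.8 ± 19.8 (SD, n = 8) in monocytes, a difference of 1.55 on the log2 scale (SE 0.11, adjusted p = 5.64e-10, edgeR quasi-likelihood test with mouse as a block and Benjamini-Hochberg adjustment). Between these gates 57.6% of the 9821 genes tested passed an adjusted p of 0.05, 28.2% higher and 29.4% lower in macrophages, so calls are common in this comparison.

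*Folr2* (chr7:101839988-101857194, minus strand), a folate receptor found on tissue-resident macrophages, had 75.6% of its 1843 UMIs in macrophages. It reached 39.7 and 32.6 CPM in parental macrophages, 83.2, 98.4 and 34.0 for E0771-Res1 and 52.2, 78.1 and 46.9 for E0771-Res2. Monocytes had 2.42 to 10.4 CPM, and the ranges of the gates did not overlap. The difference was 3.00 on the log2 scale (SE 0.14, adjusted p = 1.05e-12, edgeR). Dendritic cells held only 7 of its UMIs.

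*Msr1* (chr8:39581685-39642673, minus strand) encodes the class A scavenger receptor, which takes up modified low-density lipoprotein. Its level was 346 ± 46.5 CPM (SD, n = 8) in macrophages and 364 ± 35.5 (SD, n = 8) in monocytes. Macrophages had 294, 313, 385, 417, 303, 338, 394 and 323 CPM in the 2 parental, 3 E0771-Res1 and 3 E0771-Res2 mice, and monocytes had 419.8, 394, 355, 391, 345, 350.4, 308 and 347 in the same order. The ranges overlapped almost fully. The test called *Msr1* lower in macrophages by a small step of -0.30 on the log2 scale (SE 0.07, adjusted p = 0.00104, edgeR), and the CPM was lower in 5 of 8 mice. It separated both gates from dendritic cells, which had 16.5 to 59.5 CPM, near the 19.4 to 59.0 CPM of lymphocytes.

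*Chil3* (chr3:106147554-106167564, minus strand), the gene of the secreted chitinase-like protein Ym1, went the other way. Monocytes held 71.8% of its 39225 UMIs and macrophages 6.14%. Monocytes had 1135 and 1702 CPM in the parental mice, 1280.4, 2011 and 1029 for E0771-Res1 and 1001, 3071 and 965 for E0771-Res2, while macrophages had 72.5 to 173 CPM. Every mouse was higher in monocytes, by -3.88 on the log2 scale for macrophages against monocytes (SE 0.12, adjusted p = 3.64e-15, edgeR). Macrophages were still above lymphocytes, which had 19.5 to 35.4 CPM of *Chil3*. *Chil4*, its close paralog, had 0 UMIs in these gates, so how reads that match both genes were counted could not be checked.

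Of the 10 genes, 7 passed the filter on low counts for macrophages against monocytes, 4 were called higher and 2 lower in macrophages, and *Clec10a* was not called (adjusted p = 0.694, edgeR). Of all 9821 genes tested 57.6% were called, 28.2% higher and 29.4% lower in macrophages. The median difference of the 7 members was 1.24 on the log2 scale against 0.02 over all genes tested. *Mgl2* was called higher in macrophages (1.24, SE 0.32, adjusted p = 0.0024) and was higher in 6 of 8 mice. In both parental mice 1 cell held most of its macrophage UMIs. The monocyte gate limited dendritic cell genes and the macrophage gate did not, and the part of this in the *Mgl2* difference was not tested. *Retnla* was called too (2.02, SE 0.56, adjusted p = 0.00514), but it was higher in macrophages of only 2 mice, 1 of E0771-Res1 and 1 of E0771-Res2. Without either of these mice it no longer passed the low count filter, and DESeq2 gave 0.32 with an adjusted p of 0.78.

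**Figure D1:**
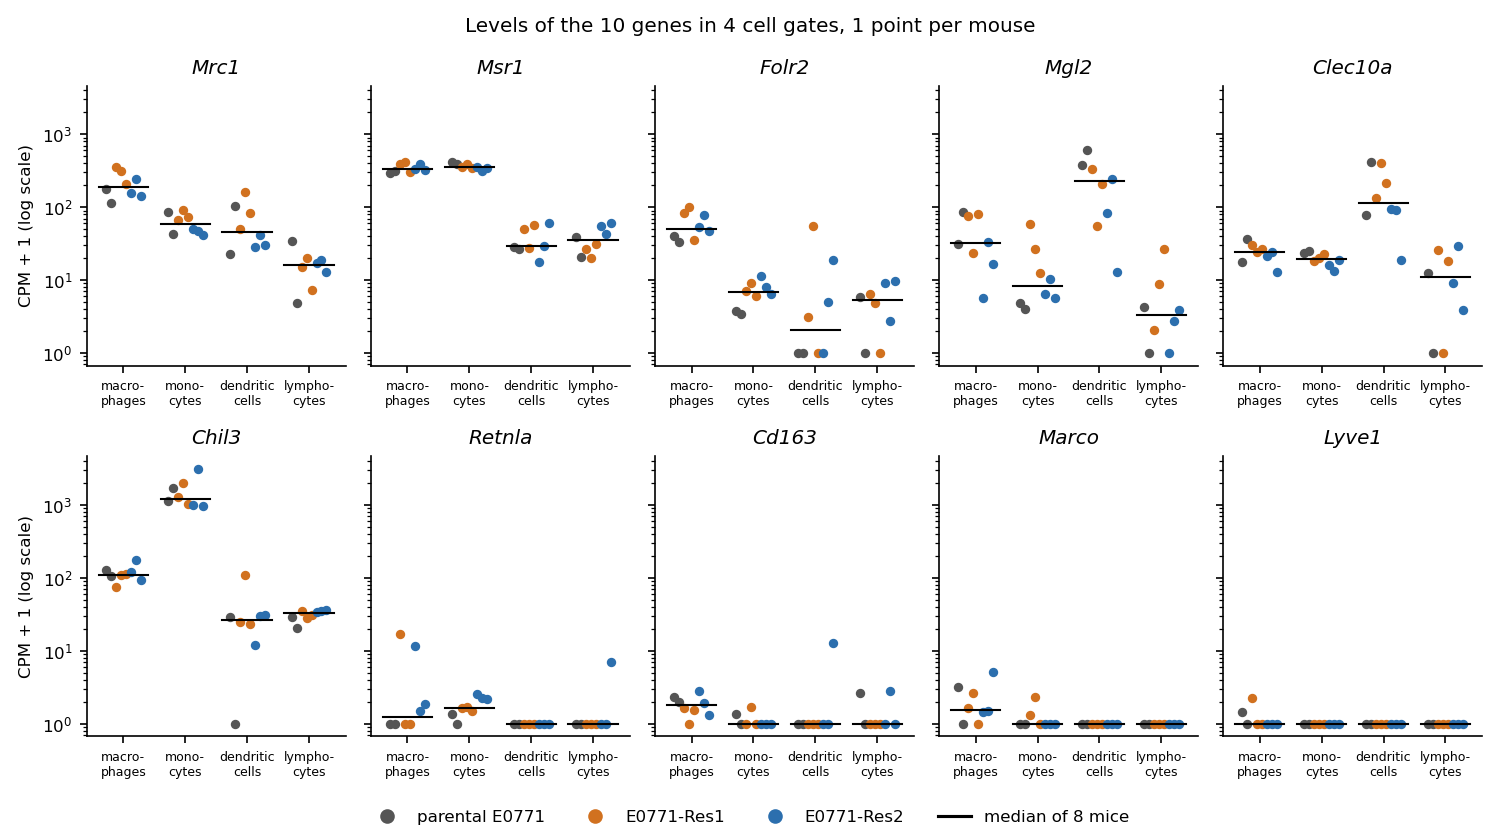
Level of each of the 10 genes in macrophages, monocytes, dendritic cells and lymphocytes, as CPM plus 1 on a log axis, with 1 point per mouse colored by tumor line and a bar at the median of 8 mice. By median, *Folr2* and *Mrc1* are highest in macrophages, *Chil3* in monocytes (965 to 3071 CPM over mice) and *Mgl2* and *Clec10a* in dendritic cells. *Retnla*, *Cd163*, *Marco* and *Lyve1* sit near 0 in most mice.

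*Mgl2* (chr11:70130329-70137550, plus strand) and *Clec10a* (chr11:70156197-70170834, plus strand) are neighboring genes and encode the lectins CD301b and CD301a, which bind galactose and N-acetylgalactosamine. Both had their highest median level over mice in dendritic cells, although few cells carried them. Dendritic cells held only 15.6% of 2487 *Mgl2* UMIs and 11.1% of 1831 *Clec10a* UMIs, and macrophages held 38.6% and 28.5%. Cells in no gate used here, 3215 of the 10605 kept, held 27.5% and 33.3%. *Mgl2* had 376 and 599 CPM in parental dendritic cells, 335, 53.8 and 209.6 for E0771-Res1 and 82.3, 241 and 11.9 for E0771-Res2. *Clec10a* had 77.4 and 417 CPM, then 132, 403 and 215, then 93.3, 90.0 and 17.8. The E0771-Res1 mouse with 53.8 CPM of *Mgl2* had 7 dendritic cells and stayed out of the tests. The E0771-Res2 mouse with 11.9 CPM was lowest for both genes, and its macrophages had more *Mgl2* than its dendritic cells. Against monocytes *Mgl2* differed by 4.26 (SE 0.35, adjusted p = 7.59e-12) and *Clec10a* by 2.69 (SE 0.25, adjusted p = 1.42e-10) on the log2 scale, and against macrophages by 2.62 (SE 0.24, adjusted p = 4.84e-10) and 2.50 (SE 0.22, adjusted p = 2.04e-10). The paralogs are similar in sequence, and reads that fit both could be lost or assigned to either.

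The other members tested were lower in dendritic cells or not called. Against monocytes, where 36.0% of 8725 genes were called (16.0% higher and 20.0% lower), 6 members were tested, the lectin pair was higher, and *Chil3* (-6.05, SE 0.20, adjusted p = 1.51e-21) and *Msr1* (-3.25, SE 0.19, adjusted p = 1.63e-15) were lower. *Mrc1* and *Folr2* were not called there (adjusted p = 0.208 and 0.374), but without the cell richest in *Mrc1* in each mouse, an alternative chosen after seeing the data, *Mrc1* was lower by -1.20 with an adjusted p of 0.0005. The richest cell is a larger part of the small dendritic cell gate than of the monocyte gate. Its removal by itself therefore lowers dendritic cells more, and no decrease is read from it. Against macrophages, where 37.9% of 7938 genes were called (17.7% higher and 20.2% lower), *Mrc1* (-2.10, SE 0.22, adjusted p = 1.27e-08), *Folr2* (-4.03, SE 0.44, adjusted p = 2.11e-08), *Msr1* (-3.03, SE 0.19, adjusted p = 1.9e-13) and *Chil3* (-2.17, SE 0.23, adjusted p = 1.22e-08) were lower. The members' medians were -0.63 and -2.14 on the log2 scale against -0.05 and -0.09 over all genes tested. All these values come from edgeR.

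The lectins were also read in kinds of dendritic cells. The gate held 125 mature cells (by *Ccr7* and *Fscn1*), 54 cells with *Cd209a* and 12 with *Xcr1* or *Clec9a*. In *Cd209a* cells *Mgl2* had 576 and 499 CPM in the parental mice, 713, 112 and 1431 for E0771-Res1 and 237, 890.0 and 0 for E0771-Res2. In mature cells it had 381 and 629.8, then 173, 0 and 50.6, then 0, 16.3 and 18.3. Mature cells were the higher kind in parental replicate 3 and E0771-Res2 replicate 3, and *Cd209a* cells in the other mice. *Clec10a* in *Cd209a* cells ranged from 96.1 to 1754 CPM and in mature cells from 0 to 109. Cells with *Xcr1* or *Clec9a* held 0 UMIs of both lectins. Each value rests on a few cells per mouse, and no test was made between these subsets.

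Regulatory sequence is shown for 3 genes with different patterns, *Mrc1* in macrophages, *Chil3* in monocytes and *Retnla* in a few cells. The windows run from 250 bases before to 50 bases after the start in RefSeq (GRCm38.p6), 5′ to 3′ on the gene's strand, and lie at chr2:14229164-14229463 (plus), chr3:106167515-106167814 (minus) and chr16:48842359-48842658 (plus). Capitals mark AGGAAGT, a form bound by the myeloid factor PU.1, and TTC and GAA with 4 bases between them, the spacing bound by STAT6, on either strand.
Mrc1: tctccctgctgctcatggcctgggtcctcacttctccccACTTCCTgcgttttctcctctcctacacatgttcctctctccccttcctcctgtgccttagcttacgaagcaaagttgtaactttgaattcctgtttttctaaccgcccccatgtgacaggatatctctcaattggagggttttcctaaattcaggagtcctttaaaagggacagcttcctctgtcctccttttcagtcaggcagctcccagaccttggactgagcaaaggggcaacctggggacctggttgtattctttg
Chil3: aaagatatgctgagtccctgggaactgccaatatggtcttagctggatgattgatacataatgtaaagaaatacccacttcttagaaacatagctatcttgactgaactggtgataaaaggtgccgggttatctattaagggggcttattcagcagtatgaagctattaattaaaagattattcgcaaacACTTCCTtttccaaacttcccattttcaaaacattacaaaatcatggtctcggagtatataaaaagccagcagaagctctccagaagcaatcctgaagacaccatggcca
Retnla: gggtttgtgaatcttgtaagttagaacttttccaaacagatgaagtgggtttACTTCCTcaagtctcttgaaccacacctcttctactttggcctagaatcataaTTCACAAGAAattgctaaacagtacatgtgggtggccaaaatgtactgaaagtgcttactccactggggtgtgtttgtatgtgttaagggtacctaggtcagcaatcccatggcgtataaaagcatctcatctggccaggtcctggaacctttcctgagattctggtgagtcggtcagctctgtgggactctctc
Windows were found for 7 of the 10 genes. AGGAAGT stood in those of 5 (*Chil3*, *Folr2*, *Mgl2*, *Mrc1* and *Retnla*) and in 9.35% of 32851 promoter windows. It began at -211 in *Mrc1*, -60 in *Chil3* and -198 in *Retnla* relative to the start. The STAT6 form stood in 1 of the 7, *Retnla* at -145, and in 6.95% of all windows. In all, 8 letter forms were searched on both strands and some overlap. Of the others, TTCNNNGAA was in 1 of the 7 genes (8.30% of all windows), TGCTGA in 3 (19.5%), TTGCNNAA in 1 (10.8%), GAGGAAGT in 1 (3.20%), and TTGCGCAA (0.183%) and GAAA followed after 2 bases by another GAAA (3.44%) in 0. A match is a description of letters and says nothing of binding.

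Shares of cells with a UMI were set beside those of lymphocytes, a cell type not known to use these genes. Free RNA can place UMIs in any cell. Median depth was 7243.5 to 11614 UMIs per macrophage, 5721 to 8225 per monocyte, 6538 to 10464 per dendritic cell and 5113 to 7655 per lymphocyte. Every cell was therefore also thinned to 2500 UMIs, which left out 2 parental, 7 E0771-Res1 and 5 E0771-Res2 macrophages, 15, 19 and 54 monocytes, 0, 1 and 1 dendritic cells and 5, 9 and 19 lymphocytes. Intervals are exact binomial 95% intervals and cover counting error only.

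*Mrc1* had a UMI in 47.0% of macrophages (95% interval 45.0 to 48.9), 15.2% of monocytes, 17.6% of dendritic cells and 6.15% of lymphocytes. After thinning these were 23.8%, 7.25%, 7.11% and 3.33%. Macrophages stood far above lymphocytes at equal depth, and the other gates lay nearer to that background.

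*Folr2* had a UMI in 21.9% of macrophages (20.3 to 23.5) and 3.03% of monocytes against 2.52% of lymphocytes, and after thinning in 8.15%, 1.41% and 0.499%. *Msr1* had a UMI in 82.3% of macrophages (80.8 to 83.7) and 74.1% of monocytes, and after thinning in 46.1% and 47.4% against 7.65% of lymphocytes. Its share in dendritic cells, 5.58% after thinning, was under that background.

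*Chil3* had a UMI in 62.7% of monocytes (61.0 to 64.4) and 24.6% of macrophages, against 14.2% of lymphocytes. After thinning the shares were 49.5%, 10.7% and 5.66%. In dendritic cells *Chil3* at 5.08% was under the lymphocyte share. *Mgl2* had a UMI in 19.1% of dendritic cells (13.9 to 25.3), 7.92% of macrophages, 2.81% of monocytes and 1.26% of lymphocytes, and after thinning in 15.7%, 2.90%, 1.41% and 0.166%. *Clec10a* had one in 22.6% of dendritic cells (17.0 to 29.1), 13.3% of macrophages, 8.55% of monocytes and 3.94% of lymphocytes, and after thinning in 13.2%, 3.32%, 2.92% and 0.998%.

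*Cd163* (chr6:124304656-124330527, plus strand), the receptor for hemoglobin bound to haptoglobin, *Marco* (chr1:120474538-120505024, minus strand), a class A scavenger receptor for bacteria, *Lyve1* (chr7:110850607-110863239, minus strand), a hyaluronan receptor, and *Retnla* (chr16:48842551-48844461, plus strand), the secreted protein Fizz1, were nearly absent. Over all kept cells they had 48, 32, 10 and 298 UMIs, in 26, 14, 3 and 51 cells. Among macrophages 9 cells had *Cd163* (0.346%), 10 had *Marco* (0.384%), 2 had *Lyve1* (0.0769%) and 14 had *Retnla* (0.538%). Monocytes had *Lyve1* in 0 of 3206 cells, which allows a share of up to 0.0936%, and dendritic cells had *Retnla*, *Marco* and *Lyve1* in 0 of 199, which allows up to 1.51%. These limits are 3 cells of the total and bound the cells with a UMI, not the cells that express the gene.

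The UMIs of these 4 genes came from few cells. *Retnla* in macrophages came to 152 UMIs in 14 cells. Only 9 cells in the series held at least 4 UMIs of any of the 4, and 6 of them were macrophages. *Retnla* shares its family with *Retnlg*, a neutrophil gene, and reads common to both could not be checked.

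Single cells showed which of these genes went together. A macrophage of E0771-Res1 replicate 1 with 6457 UMIs held 8 UMIs of *Lyve1*, 16 of *Retnla*, 2 of *Cd163*, 11 of *Folr2* and 8 of *Mrc1*, along with 23 of *Pf4*, 35 of *Ccl8*, 48 of *Selenop* and 5 of *Cbr2*, genes known from tissue-resident macrophages. A macrophage of E0771-Res2 replicate 1 with 5024 UMIs held 8 of *Cd163*, 25 of *Retnla*, 3 of *Folr2* and 3 of *Mrc1*, with 29 of *Ccl8*, 36 of *Selenop* and 4 of *Cbr2*. A macrophage of E0771-Res2 replicate 3 with 23886 UMIs held 14 of *Marco*, 12 of *Msr1*, 8 of *Mrc1* and 57 of *Pf4*. Other cells rich in *Retnla* differed. A second macrophage of E0771-Res1 replicate 1 held 84 UMIs of *Retnla*, 8 of *Mgl2* and 16 of *Pf4* with 76 of *H2-Ab1*, a gene of major histocompatibility complex (MHC) class II. A cell of E0771-Res2 replicate 3 outside the gates held 100 of *Retnla* and 55 of *Pf4* with 102 of *Ly6c2* and 4 of *C1qa*. All 10 macrophages with *Marco* also had *Mrc1*, and 8 of the 9 with *Cd163* did, where 47.0% of all macrophages did. Over all kept cells 13 of 14 with *Marco* had *Mrc1* but only 8 of 26 with *Cd163* did, against 23.6% of all, so no *Cd163* cell outside the macrophage gate had *Mrc1*. Deep cells have more of every gene, and these cells were not thinned.

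Between monocytes and macrophages lay 749 cells with 3 to 9 *C1qa* UMIs. Levels of *Mrc1*, *Folr2* and *Chil3* differed between the ends of the *C1qa* range. Cells with *Lyz2* and few lymphoid or dendritic UMIs were sorted by *C1qa* into 0 to 2, 3 to 9, 10 to 29 and 30 or more UMIs (3844, 668, 770 and 1173 cells), and levels were read after thinning. The steps were set on *C1qa* before thinning, so deeper cells fall into higher steps. *Mrc1* had 67.4 ± 30.2, 126 ± 54.9, 177 ± 74.3 and 222 ± 87.2 CPM (SD, n = 8), and was higher at the top than at the bottom in 8 of 8 mice but rose at every step in only 5. *Folr2* had 8.18 ± 3.55, 26.2 ± 15.3, 37.3 ± 12.8 and 65.3 ± 41.0 CPM, higher at the top in 8 of 8 mice but rising at every step in only 3. *Chil3* had 1324 ± 561, 633 ± 402, 119.7 ± 41.1 and 113 ± 51.5 CPM, lower at the top in 8 of 8 mice and falling at every step in 5. The mean of *Chil3* fell over the first 3 steps and nearly equal on the last 2. *Msr1* had 363 ± 40.2, 408 ± 30.4, 415 ± 95.6 and 340.4 ± 38.8 CPM and was higher at the top in 3 of 8 mice. Means of *Clec10a* were 16.8, 13.2, 18.1 and 15.3 CPM and those of *Mgl2* 13.1, 23.6, 5.52 and 33.2, without 1 direction.

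**Figure D2:**
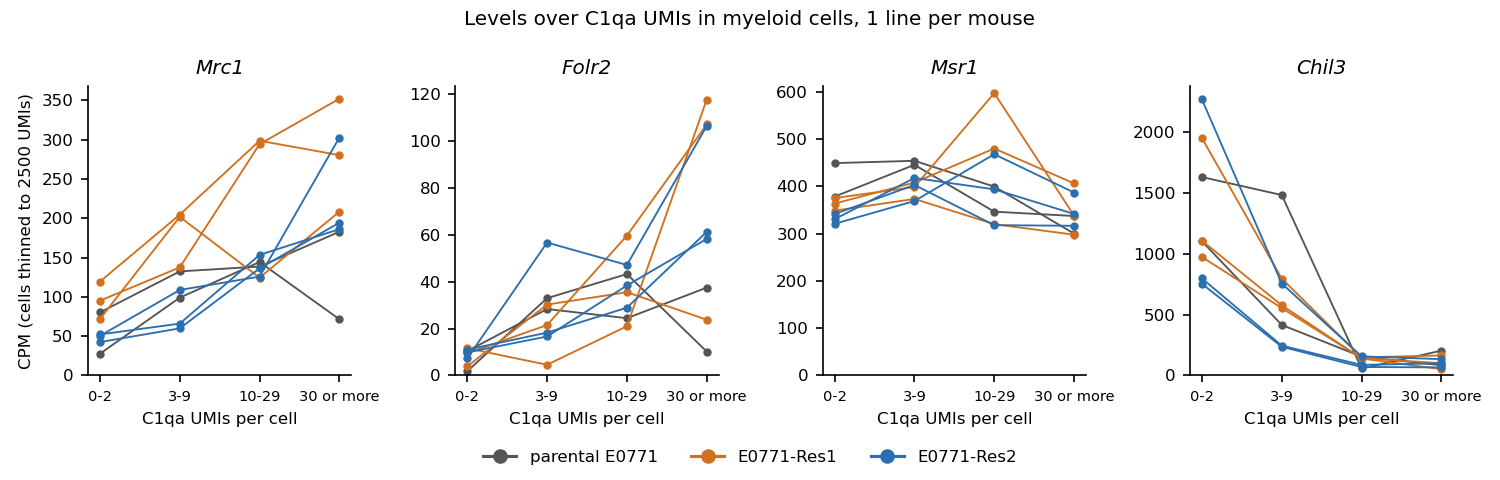
Levels of *Mrc1*, *Folr2*, *Msr1* and *Chil3* (CPM, cells thinned to 2500 UMIs) in myeloid cells grouped by *C1qa* UMIs per cell, 1 line per mouse colored by tumor line. *Mrc1* and *Folr2* are higher at 30 or more than at 0 to 2 in all 8 mice, *Chil3* falls by the step of 10 to 29, and *Msr1* keeps no common direction.

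The tumor lines were compared within each gate to ask whether macrophages, monocytes or dendritic cells of resistant tumors carry more of these genes. The 3 contrasts of a gate come from 1 fit and share samples, so their calls are not separate evidence. In macrophages 0.566% of 9542 genes were called for E0771-Res1 against parental, 1.85% for E0771-Res2 against parental and 3.49% for E0771-Res2 against E0771-Res1. Of 7 members tested, 0, 0 and 1 were called. Medians over these 7 were 0.30, 0.21 and -0.56 on the log2 scale, against 0.00 over all genes in each contrast.

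*Mrc1* in macrophages was 144 ± 43.8 CPM (SD, n = 2) for parental tumors, 293 ± 79.7 (SD, n = 3) for E0771-Res1 and 180.0 ± 52.3 (SD, n = 3) for E0771-Res2. All 3 E0771-Res1 mice lay above both parental mice, and E0771-Res2 overlapped both. E0771-Res1 against parental gave 0.99 on the log2 scale (SE 0.25, adjusted p = 0.0839) and E0771-Res2 against E0771-Res1 gave -0.73 (SE 0.20, adjusted p = 0.0684), which were not called (edgeR). The first was called without E0771-Res1 replicate 3 (adjusted p = 0.0089), without the 5% of cells with most UMIs (0.0399) and without the low count filter (6.65e-14). The second was called without E0771-Res1 replicate 3 (adjusted p = 0.00816), without E0771-Res2 replicate 2 (0.0212) and without the 5% of cells with most UMIs (0.0213). Calls also came with thinned cells (0.0327), with a gate of 5 *C1qa* UMIs (0.0203) or of 10 per 10000 (0.0374) and without the filter (4.91e-11). Without the filter 433 genes were called in the first contrast and 698 in the second, against 54 and 333 with it. Calls were thus more common in that setting, and its p values carry little beside the others. E0771-Res1 replicate 3 was the lowest mouse of its line and E0771-Res2 replicate 2 the highest of its own. Leaving out either mouse by itself widens the difference. The share of macrophages with *Mrc1* after thinning was 19.7% and 15.2% for parental mice, 30.8%, 29.1% and 25.9% for E0771-Res1 and 20.7%, 25.3% and 19.0% for E0771-Res2. The E0771-Res1 mice were above all others, but replicate 3 (25.9%) was barely above E0771-Res2 replicate 2 (25.3%). In CPM that pair ran the other way. Between E0771-Res1 and parental mice a higher level went with more cells holding a UMI.

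*Folr2* in macrophages was 36.2 ± 5.04 CPM (SD, n = 2), 71.9 ± 33.7 (SD, n = 3) and 59.0 ± 16.7 (SD, n = 3) in the same order. E0771-Res1 replicate 3, at 34.0 CPM, lay among the parental mice and the other 2 lay at 83.2 and 98.4. No contrast was called (0.95 on the log2 scale, SE 0.35, adjusted p = 0.26, edgeR, for E0771-Res1 against parental). Without E0771-Res1 replicate 3 that one was (1.25, adjusted p = 0.00921, edgeR). As replicate 3 was the lowest mouse of its line, leaving it out by itself raises the difference. The gate itself moved with the lines. The 4 monocyte markers (*Plac8*, *Ccr2*, *Vcan* and *Hp*) summed in macrophages to 1677 and 1715 CPM for parental mice, 762 to 1375 for E0771-Res1 and 791 to 1107 for E0771-Res2, and their part in the *Mrc1* and *Folr2* values was not tested. *Msr1*, *Chil3*, *Clec10a* and *Retnla* were not called in macrophages. *Retnla* was at 0 in both parental mice, 16.0, 0 and 0 CPM for E0771-Res1 and 10.5, 0.467 and 0.879 for E0771-Res2, so its level is that of 1 mouse in each resistant line.

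**Figure D3:**
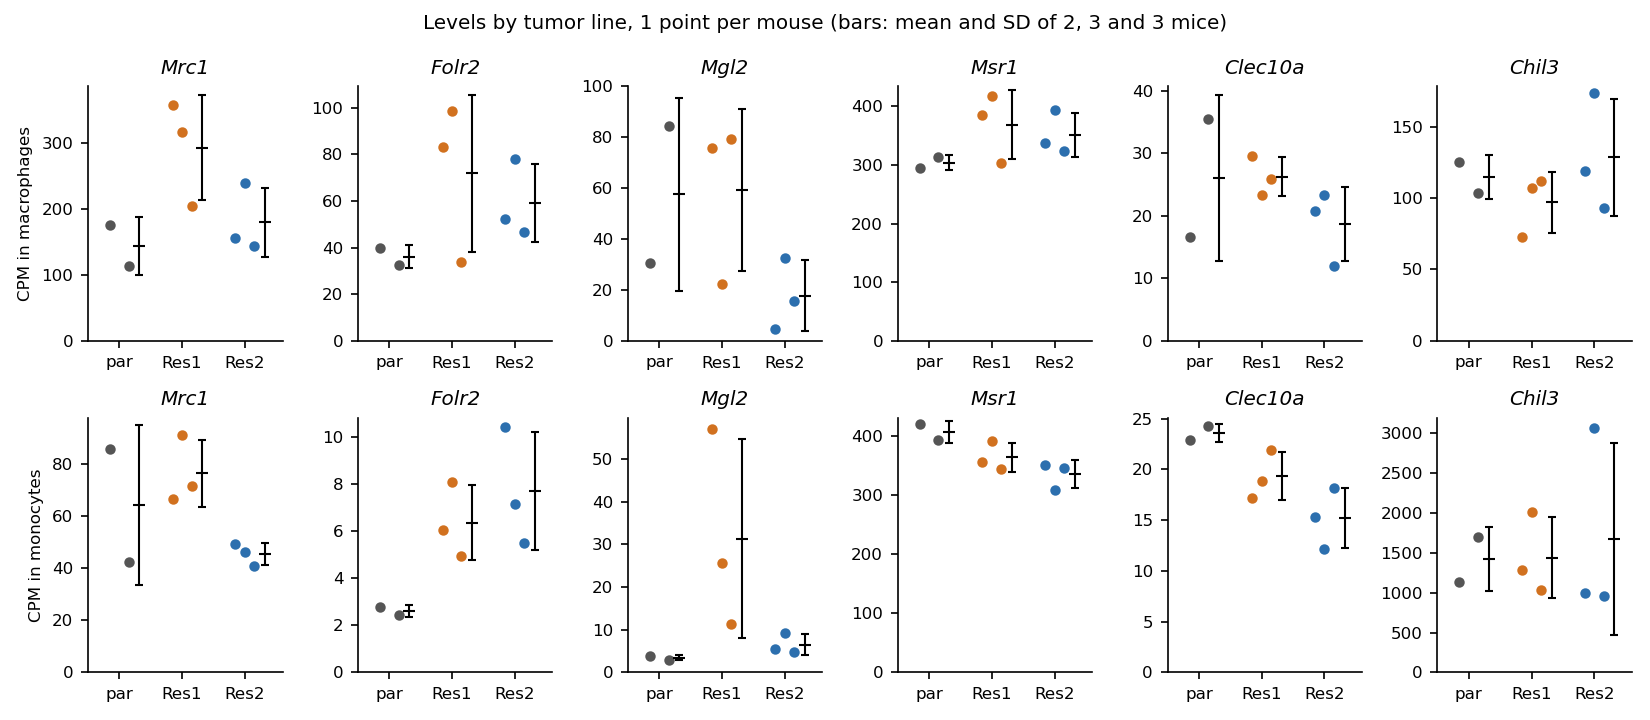
Levels of 6 genes by tumor line in macrophages (top) and monocytes (bottom), in CPM on linear axes from 0, with 1 point per mouse and the mean and SD of 2 parental (par), 3 E0771-Res1 (Res1) and 3 E0771-Res2 (Res2) mice. *Mrc1* in macrophages has its highest mean in E0771-Res1 (204 to 358 CPM), and *Mgl2* in monocytes is highest in E0771-Res1 (11.4 to 57.1 CPM). In E0771-Res1 replicate 2, 1 monocyte holds most of the *Mgl2* UMIs.

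*Mgl2* was the member called between lines. In macrophages it had 30.8 and 84.4 CPM for parental mice, 75.6, 22.5 and 79.4 for E0771-Res1 and 4.78, 32.7 and 15.8 for E0771-Res2, with the last 2 groups overlapping. E0771-Res2 was lower than E0771-Res1 by -2.04 on the log2 scale (SE 0.50, adjusted p = 0.0381, edgeR), where 1.62% of all genes were called lower. The call was lost without E0771-Res1 replicate 1 (adjusted p = 0.163), E0771-Res1 replicate 3 (0.0516), E0771-Res2 replicate 1 (0.16) or E0771-Res2 replicate 3 (0.16), with at most 1 lymphoid UMI per cell (0.0761) and with DESeq2 (0.442). It was kept without the cell richest in *Mgl2* in each mouse (-2.41, adjusted p = 0.0133), an alternative chosen after seeing the data. E0771-Res2 against parental gave -1.73 (SE 0.61, adjusted p = 0.179) and turned to 0.26 without that cell.

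In monocytes no gene of 9054 was called for E0771-Res1 against parental (679 had an unadjusted p under 0.05 in edgeR, and DESeq2 called 2), 3.04% were called for E0771-Res2 against parental and 2.61% for E0771-Res2 against E0771-Res1. *Mgl2* had 3.82 and 3.03 CPM for parental monocytes, 57.1, 25.6 and 11.4 for E0771-Res1 and 5.53, 9.25 and 4.73 for E0771-Res2. In CPM the E0771-Res1 mice lay above all others, but 1 cell made most of the level of replicate 2. E0771-Res2 was lower than E0771-Res1 by -2.37 (SE 0.44, adjusted p = 0.00903, edgeR), where 1.01% of all genes were called lower, and no other of the 6 members tested was called in monocytes. Medians over the 6 were 0.12, -0.0049 and -0.22 on the log2 scale for the 3 contrasts, against 0.00061, 0.015 and 0.0041 over all genes. The call was lost without E0771-Res2 replicate 3 (adjusted p = 0.0716), after thinning (0.0723), with at least 6 *Ly6c2* UMIs (0.0786) and without the cell richest in *Mgl2* in each mouse (-1.97, adjusted p = 0.0964). E0771-Res1 against parental gave 3.23 (SE 0.60, adjusted p = 0.127, edgeR). It gave 3.63 with an adjusted p of 0.00223 without E0771-Res1 replicate 3, the lowest mouse of that line, whose removal by itself raises the difference.

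Few cells made these levels. In macrophages the *Mgl2* UMIs were 72 and 88 in the parental mice, 482, 27 and 147 for E0771-Res1 and 21, 70 and 54 for E0771-Res2, and the single richest cell held 52 and 80, then 47, 17 and 28, then 3, 30 and 17 of them. So 1 cell made most of each parental level. In monocytes the sums were 11 and 5, then 179, 38 and 23, then 18, 22 and 12. Of these the richest cell held 1 and 2, then 73, 35 and 7, then 2, 13 and 2. There 1 cell made most of the level of E0771-Res1 replicate 2 (35 of 38 UMIs) and of E0771-Res2 replicate 2 (13 of 22). The share of macrophages with an *Mgl2* UMI after thinning was 1.64% and 1.79% for parental mice, 6.45%, 2.56% and 4.15% for E0771-Res1 and 0.935%, 1.02% and 1.97% for E0771-Res2. By this count, which a rich cell does not move, the 3 E0771-Res1 mice stood above the other 5. The smallest gates of E0771-Res1 held 117 macrophages and 205 monocytes, so low shares rest on a few cells and the order is uncertain. In monocytes the share was 0.957% and 0, then 3.01%, 1.48% and 1.98%, then 1.13%, 0.935% and 1.21%. The E0771-Res1 mice were again highest, with the same limit.

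**Figure D4:**
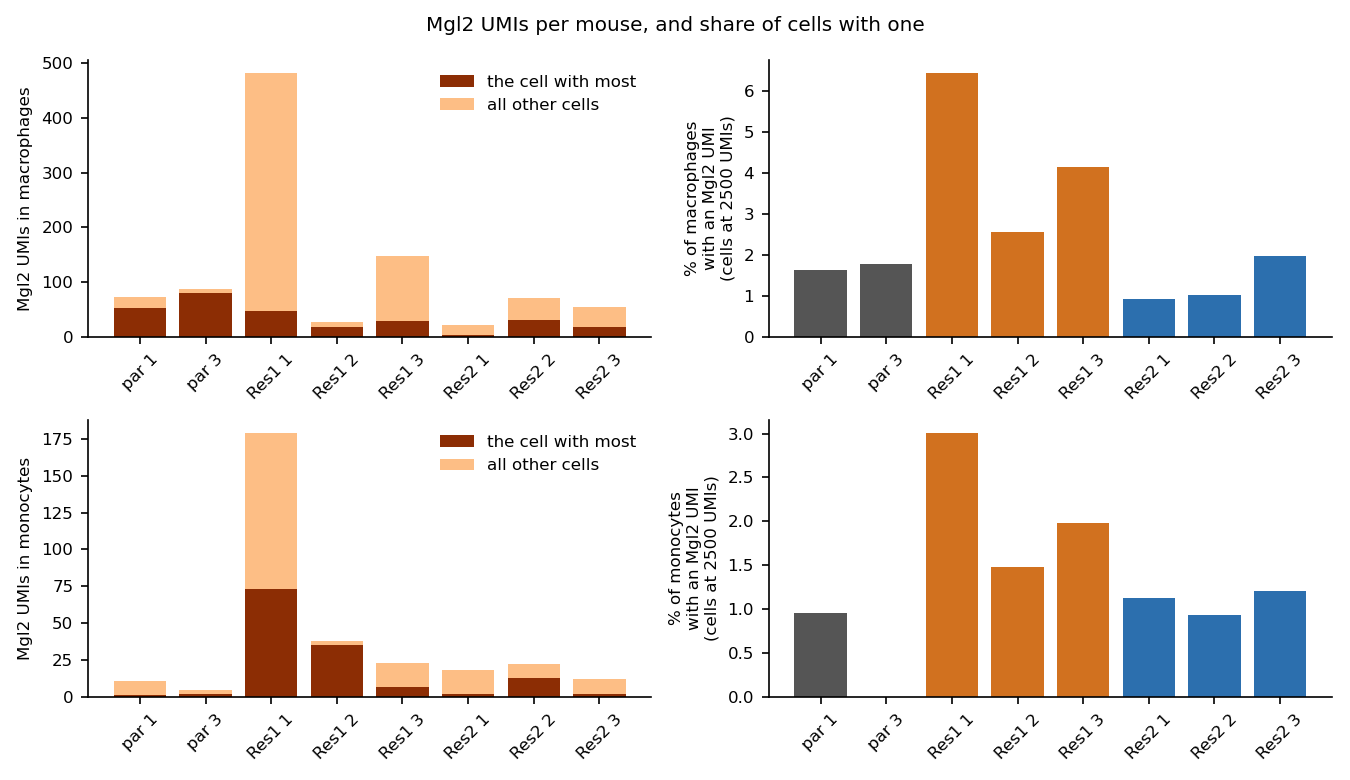
*Mgl2* in macrophages (top) and monocytes (bottom) of each parental (par, gray), E0771-Res1 (Res1, orange) and E0771-Res2 (Res2, blue) mouse. Left, UMIs summed over the gate, split into the single richest cell and all other cells, with the richest cell at 80 of 88 UMIs in macrophages of parental replicate 3. Right, percent of cells with a UMI after thinning to 2500 UMIs, with 0.935% to 1.97% of E0771-Res2 macrophages and 2.56% to 6.45% of E0771-Res1 macrophages.

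The cells rich in *Mgl2* had much MHC class II. With at least 10 *Mgl2* UMIs there were 24 macrophages (2 of 358 parental, 19 of 953 E0771-Res1 and 3 of 1291 E0771-Res2). Likewise there were 5 monocytes (0 of 670, 4 of 1024 and 1 of 1512) and 16 dendritic cells (3 of 36, 10 of 82 and 3 of 81). These cells were not thinned, and E0771-Res2 cells were shallower. Replicate 1 held most of those of E0771-Res1. The 24 macrophages held 550 of the 961 macrophage UMIs, had a median of 191 UMIs of *H2-Ab1*, and 1 of them had a UMI of *Flt3* and 0 of *Zbtb46*, genes that mark dendritic cells. Of the 16 dendritic cells rich in *Mgl2*, only 4 had *Flt3* and 3 *Zbtb46*. Among macrophages, those with any *Mgl2* UMI had a median over mice of 7014 CPM of *H2-Ab1* against 3209.8 in those without, higher in 8 of 8 mice, and 283 CPM of *Trem2*, a lipid receptor of tumor macrophages, against 356, lower in 8 of 8. *Cd74* was 13389 CPM against 6743. *Flt3* was 8.40 CPM against 1.46, higher with *Mgl2* in 7 of 8 mice. In monocytes *H2-Ab1* was 7505 CPM with *Mgl2* and 1679.8 without, again higher in 8 of 8 mice.

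Summed markers of dendritic cells were lowest in E0771-Res2, and the parental mice lay within the range of E0771-Res1. The 6 dendritic cell markers outside the gates (*Cd74*, *Ccl22*, *Batf3*, *Irf8*, *Dpp4* and *Ccl17*) summed in macrophages to 10273 and 11051 CPM for parental mice, 7079 to 12123 for E0771-Res1 and 4409.9 to 4486 for E0771-Res2, and in monocytes to 5924 and 6615, 4923 to 8266 and 2598 to 3922. In macrophages 5 or 6 of the 6 were detected in each mouse, most of the sum was *Cd74*, and *Ccl17* was at or near 0 in most macrophage sums. As *Cd74* had a median of 6743 CPM even in macrophages without *Mgl2*, the sum is no measure of dendritic cells. *H2-Ab1* was also lower in E0771-Res2 than in E0771-Res1. It gave -1.19 in macrophages (SE 0.16, adjusted p = 0.000896, edgeR) and -1.14 in monocytes (SE 0.23, adjusted p = 0.0149, edgeR). Genes raised by tissue dissociation (*Fos*, *Jun*, *Hspa1a* and *Hspa1b*) summed in monocytes to 2322 to 2671 CPM for parental mice, 2416 to 3693 for E0771-Res1 and 3413 to 5597 for E0771-Res2. The part of any of these in the *Mgl2* difference was not tested.

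*Mrc1* in monocytes was 64.1 ± 30.7 CPM (SD, n = 2) for parental mice, 76.4 ± 12.9 (SD, n = 3) for E0771-Res1 and 45.6 ± 4.27 (SD, n = 3) for E0771-Res2, and all E0771-Res2 mice lay below all E0771-Res1 mice. The difference between those 2 lines was -0.72 on the log2 scale (SE 0.20, adjusted p = 0.0727, edgeR) and was called without either parental mouse (adjusted p = 0.0207 and 0.0198), which take no part in the contrast but in the spread, and without E0771-Res1 replicate 1 (0.0496). It was also called by DESeq2 (0.0429), with only the 2 groups compared (0.0205) and without the low count filter (1.49e-05). Without the filter 533 genes were called in this contrast, against 236 with it. Replicate 1 was the lowest E0771-Res1 mouse here, so leaving it out by itself widens the difference. *Folr2* in monocytes rested on 4 to 34 UMIs per mouse, at 2.78 and 2.42 CPM for parental mice, 6.06, 8.09 and 4.97 for E0771-Res1 and 10.4, 7.15 and 5.52 for E0771-Res2. Both parental mice were below the other 6. E0771-Res2 against parental gave 1.57 (SE 0.43, adjusted p = 0.0626). *Chil3* in monocytes was not called and overlapped between all lines, and its share of cells with a UMI ran only from 58.6% to 66.8% over the 8 mice.

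In dendritic cells only *Mrc1*, *Mgl2* and *Clec10a* passed the low count filter and none was called. Of 3261 genes, 0 were called against parental in either line and 0.0307% for E0771-Res2 against E0771-Res1 (unadjusted p under 0.05 for 188, 155 and 201 genes in edgeR, and 0, 3 and 1 calls by DESeq2). *Mgl2* had adjusted p values of 0.929, 0.675 and 0.818, and the medians of these 3 members were -0.34, -1.59 and -1.19 on the log2 scale. The line effect was also compared between macrophages and monocytes in 1 fit, where 0.0407%, 0.255% and 0.102% of 9821 genes were called for the 3 contrasts and no member was. *Mgl2* gave -2.92 (SE 0.70, adjusted p = 0.151) and *Mrc1* gave 0.80 (SE 0.24, adjusted p = 0.333) for E0771-Res1 against parental, so a line effect particular to 1 gate was not shown for either. Without E0771-Res1 replicate 3 *Mgl2* was called there (-3.54, adjusted p = 0.000612, edgeR). That mouse had the least *Mgl2* in monocytes and the most in macrophages of its line, so its removal by itself widens the difference.

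Which of the genes shared cells was read after thinning, as cells holding both over the number expected from each mouse's own shares. In macrophages *Mrc1* met *Msr1* in 332 cells where 288 were expected, a ratio of 1.15, above 1 in 8 of 8 mice. It met *Folr2* in 80 cells against 52.9 (1.51, above 1 in 5 of 7 mice with at least 1 expected), *Clec10a* in 36 against 21.5 (1.67, 7 of 7), *Mgl2* in 31 against 20.2 (1.54, 3 of 4) and *Chil3* in 79 against 67.2 (1.18, 6 of 8). Of the thinned macrophages with *Mrc1*, 53.8% held *Msr1* where 46.1% of all did. *Msr1* and *Folr2* (1.11, 4 of 8) and *Folr2* and *Chil3* (1.08, 2 of 5) were close to the number expected. Thinning to 1500 UMIs kept 10 of 15 member pairs in macrophages and 9 of 15 in monocytes on the same side of 1, so pairs with few cells carry little.

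Monocytes gave another picture for *Chil3*. It met *Msr1* at a ratio of 1.02, *Mrc1* in 100 cells against 113 (0.885, above 1 in 3 of 8 mice) and *Mgl2* in 11 against 21.7 (0.507, above 1 in 1 of 7). *Mrc1* and *Msr1* met in 128 monocytes against 108 (1.19, 6 of 8). In dendritic cells *Mgl2* and *Clec10a* met in 11 cells against 4.51, from 31 and 26 cells of 197, a ratio of 2.44.

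**Figure D5:**
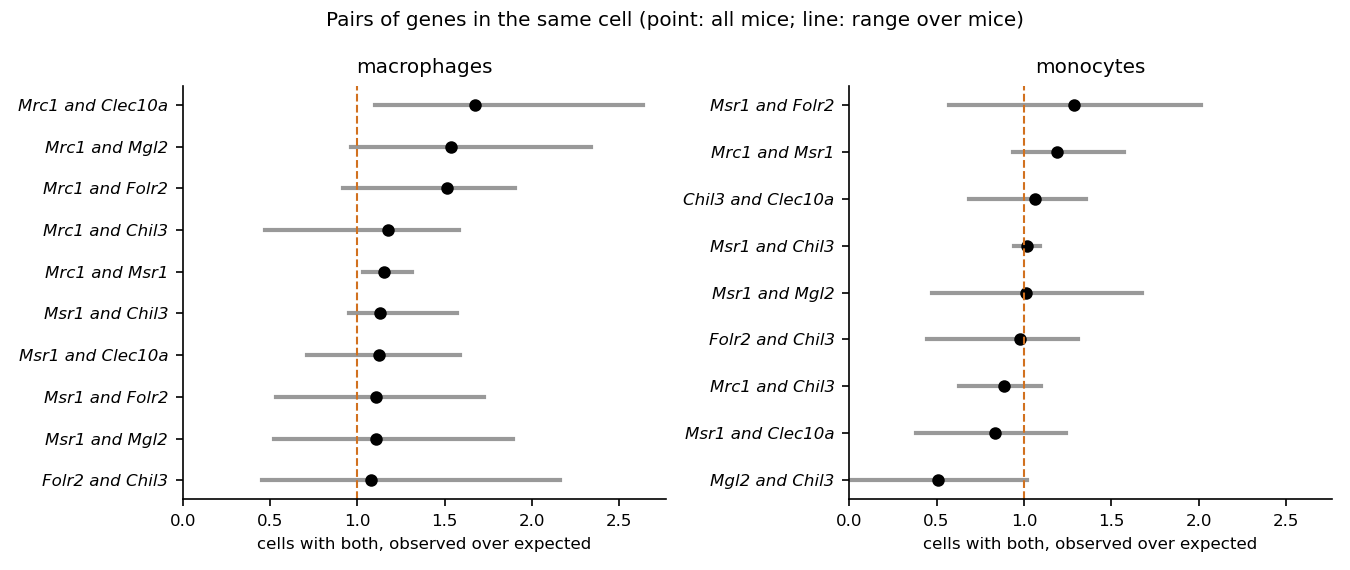
Cells holding both genes of a pair over the number expected from their shares, in macrophages (left) and monocytes (right) thinned to 2500 UMIs, for pairs with at least 10 cells expected. Points are all mice together, lines the range over mice and the dashed line 1. *Mrc1* with *Msr1* stays above 1 in every mouse in macrophages, and *Mgl2* with *Chil3* lies at 0.507 in monocytes.

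The same count was made with genes outside the list. In macrophages *Folr2* met *Pf4* in 139 cells against 83.8 expected (1.66, 7 of 7 mice), *Ccl8* in 68 against 33.5 (2.03, 5 of 7) and *Trem2* in 115 against 81.9 (1.40, 8 of 8), but *H2-Ab1* less often (0.865, above 1 in 1 of 8). *Mrc1* met *Pf4* in 343 against 236 (1.45, 8 of 8) and *Il4ra*, the receptor chain for interleukin-4, in 148 against 97.1 (1.52, 8 of 8). *Mgl2* met *H2-Ab1* in 67 against 57.8 (1.16, 8 of 8) and *Trem2* in 19 against 27.4 (0.693, above 1 in 1 of 7). Macrophages with *Chil3* held monocyte genes more often, with *Plac8* in 175 against 116 (1.51, 8 of 8), *Ly6c2* in 206 against 157 (1.31, 8 of 8) and *Hp* in 30 against 9.06 (3.31, 5 of 5). In monocytes *Chil3* met *Hp*, the haptoglobin gene, in 724 against 493 (1.47, 8 of 8) and *H2-Ab1* in 730 against 858 (0.851, above 1 in 0 of 8), while *Mrc1* met *Hp* in 39 against 72.1 (0.541, 1 of 8) and *Trem2* in 52 against 30.2 (1.72, 7 of 7).

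Correlations across single cells of each mouse, averaged over 8 mice, ranked the genes most alike. These values are descriptions across cells that share a library and its depth, and values near 0 in sparse counts are no finding. In macrophages, over 1662 genes, *Mrc1* was most like *Dab2* (r = 0.43, 0.28 to 0.57 over mice), *Pf4* (0.43, 0.25 to 0.56), *Selenop* (0.34), *Maf* (0.28) and *Cfp* (0.27). *Folr2* was most like *Pf4* (0.33), *Ccl8* (0.33), *Timp2* (0.28), *Selenop* (0.27) and *Trem2* (0.27). *Msr1* was most like *Fabp5* (0.28), *Ccr1* (0.27), *Dab2* (0.25), *Clec4n* (0.25) and *Pf4* (0.24). *Pf4* was thus among the 5 nearest genes of all 3 receptors. Between members r was 0.24 for *Mrc1* with *Folr2* and 0.23 for *Mrc1* with *Msr1*. *Chil3* in monocytes, over 1645 genes, was most like *Mgst1* (0.49, 0.42 to 0.57), *Hp* (0.48), *Lyz2* (0.46), *Ifitm6* (0.44) and *Gsr* (0.40), and most opposite to *Cd74* (-0.41). *Lyz2* is a gate gene of monocytes. *Mgl2* and *Clec10a* reached at most 0.20 in macrophages, and in dendritic cells of 7 mice *Mgl2* was most like *Capg* (0.40), *Lgals1* (0.38), *Dab2* (0.37), *Sap18* (0.36) and *Clec10a* (0.36), the last with -0.09 to 0.62 over mice.

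Between macrophages and monocytes the other genes of the same families followed no single direction. Of 24 other scavenger receptors and uptake lectins 13 were tested, and 7 were higher and 3 lower in macrophages. Of all genes 28.2% were called higher and 29.4% lower there. The median of the 13 was 0.22 on the log2 scale against 0.02 over all genes. *Cd209a*, which limits the monocyte gate (1.87, SE 0.33, adjusted p = 8.72e-05), *Stab1*, a receptor for oxidized lipoprotein (1.73, SE 0.12, adjusted p = 1.74e-10), and *Mertk*, a receptor for dying cells (1.57, SE 0.12, adjusted p = 6.56e-10), were higher. *Clec4n*, the lectin Dectin-2 (-0.77, SE 0.09, adjusted p = 2.18e-07), and the lipoprotein and lysosomal receptors *Scarb1* (-0.59, SE 0.08, adjusted p = 3.19e-06) and *Scarb2* (-0.28, SE 0.08, adjusted p = 0.00403) were lower. Of 26 other alternative activation genes 24 were tested, 8 were higher and 10 lower, with a median of 0.04. The chemokines *Ccl8* (2.95, SE 0.17, adjusted p = 1.18e-11), *Pf4* (2.87, SE 0.14, adjusted p = 1.88e-12) and *Ccl22* (1.91, SE 0.41, adjusted p = 0.000502) were higher and *Fn1* (-2.64, SE 0.18, adjusted p = 1.75e-10), *F13a1* (-2.64, SE 0.09, adjusted p = 1.49e-14) and *Ear2* (-2.32, SE 0.18, adjusted p = 9.22e-10) were lower in macrophages. Both lists ran mostly lower in dendritic cells. The receptors and lectins include *Cd209a*, a gene of the dendritic cell gate, so the gates themselves favor a higher *Cd209a* in dendritic cells. Dendritic cells against monocytes had 4 of 14 tested receptors and lectins higher and 9 lower, with a median of -1.26. Of 22 alternative activation genes 5 were higher and 13 lower, with a median of -1.05, against -0.05 over all genes. Of all genes 16.0% were called higher and 20.0% lower in dendritic cells than in monocytes. The transcription factor *Irf4* (3.09, SE 0.44, adjusted p = 8.86e-07) was higher there, and the lipoprotein receptor *Lrp1* (-2.60, SE 0.20, adjusted p = 2.12e-12) and *F13a1* (-4.38, SE 0.28, adjusted p = 2.09e-14) were lower. Against macrophages 3 of 14 receptors and lectins were higher and 9 lower in dendritic cells, with a median of -1.02. Of 23 alternative activation genes 6 were higher and 13 lower, with a median of -1.47, against -0.09 over all genes. Of all genes 17.7% were called higher and 20.2% lower in that comparison. All values are from edgeR.

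Between tumor lines the calls among these genes are set beside the share of all genes called. For E0771-Res2 against parental that share was 1.85% in macrophages and 3.04% in monocytes. Against E0771-Res1 it was 3.49% and 2.61%. In macrophages of E0771-Res2 against parental, 2 of 13 scavenger receptors and lectins were higher, the lipid receptor *Cd36* (1.89, SE 0.26, adjusted p = 0.00184) and *Cd68* (0.45, SE 0.10, adjusted p = 0.0267), and 1 of 24 alternative activation genes was lower, *Socs1* (-1.04, SE 0.24, adjusted p = 0.0448). Against E0771-Res1, *Cd68* (0.52, SE 0.09, adjusted p = 0.00384), *Ear2* (1.31, SE 0.33, adjusted p = 0.0437) and *Pparg*, a lipid-sensing nuclear receptor (0.58, SE 0.11, adjusted p = 0.0107), were higher and *Clec4n* was lower (-1.09, SE 0.17, adjusted p = 0.00273). In monocytes of E0771-Res2 against parental 3 of 21 alternative activation genes and 0 of 12 receptors were called, *Pf4* (2.42, SE 0.46, adjusted p = 0.0108) and *Pparg* (0.93, SE 0.21, adjusted p = 0.0239) higher and *Il13ra1* (-0.74, SE 0.14, adjusted p = 0.00899) lower. Against E0771-Res1, *Pparg* (0.81, SE 0.18, adjusted p = 0.0231) and *Cd68* (0.51, SE 0.10, adjusted p = 0.0138) were higher and *Clec4n* was lower (-0.83, SE 0.16, adjusted p = 0.0121). For E0771-Res1 against parental no gene of either list was called, where 0.566% of all genes were in macrophages and 0% in monocytes.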

How the data were processed

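Per the labels and file headers, cells of each mouse were tagged with multiplexing oligonucleotides, sequenced from the 3′ end and counted with Cell Ranger 6.1.2 (build mm10 in the submitters' processing notes), and the authors deposited raw UMI counts per gene and cell. The 10 genes and all other lists were chosen with earlier results of these data known. Kept cells were gated as described. The macrophage gate had no lymphoid or dendritic limit. Monocytes also needed at least 5 *Lyz2* UMIs and at most 1 lymphoid and 1 dendritic UMI. Dendritic cells also needed under 10 *C1qa*, at most 2 *Ly6c2*, at least 5 *H2-Ab1* and at most 1 lymphoid UMI. No doublet caller was run, and removal of the 5% of cells with most UMIs was an alternative. Counts summed per mouse and gate (at least 10 cells, mitochondrial, Rpl, Rps and Gm genes left out) were tested with edgeR 4.0.16 in R 4.3.3 (TMM, filterByExpr, two-sided quasi-likelihood test, Benjamini-Hochberg over all genes tested), with DESeq2 1.42.0 as an alternative. These fits were first checked on simulated counts. CPM are UMIs scaled to a gate sum of 1000000. Shares and intervals used scipy 1.17.1 in Python 3.11.15. Between replicates the chi-square per degree of freedom of summed UMIs was 2.84 to 14.3. It treats UMIs as independent although they come grouped in cells. So it cannot tell differences between mice from the sampling of cells. The rule for naming took, besides the 10 genes, the 3 largest called changes per direction and list and the 5 most correlated genes. It was followed in full for macrophages against monocytes. In other comparisons the list genes described, and some marker genes and single cells throughout, were chosen after their values were seen. Removal of each gene's richest cell and a dendritic gate of at least 2 UMIs were also chosen after seeing the data.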

Additional observations from a re-analysis of the deposited data

How the results depend on the processing

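Of 454 fold changes under other settings, 415 kept direction and side of the threshold, 27 became called, 11 lost the call and 1 reversed (*Mgl2*, E0771-Res2 against parental macrophages, 0.26 without its richest cell in each mouse). The causes were not tested. The 3 comparisons between gates stayed within 1.5 times of 6, 4 and 6 members called. Between lines the count of members called moved as follows. For macrophages, E0771-Res1 against parental went from 0 to 3 without the low count filter, to 2 without the 5% of cells with most UMIs and to 0 to 2 with a mouse left out, and E0771-Res2 against parental from 0 to 3 without the filter. E0771-Res2 against E0771-Res1 went from 1 to 0 with DESeq2 or with at most 1 lymphoid UMI, to 4 without the filter, to 2 with thinned cells, without the 5% of cells with most UMIs, with 5 *C1qa* UMIs or 10 per 10000 UMIs, and to 0 to 2 with a mouse left out. For monocytes, E0771-Res1 against parental went from 0 to 1 without the filter and to 0 to 1 with a mouse left out, E0771-Res2 against parental from 0 to 2 without the filter, and E0771-Res2 against E0771-Res1 from 1 to 2 with DESeq2, without the filter or with only these 2 groups, to 0 with thinned cells, 6 *Ly6c2* UMIs or without the richest cell, and to 0 to 2 with a mouse left out. For dendritic cells, E0771-Res2 against parental went from 0 to 2 without the filter and to 0 to 1 with a mouse left out, and E0771-Res2 against E0771-Res1 from 0 to 1 without the filter. In the comparison of line effects between gates, both contrasts against parental went from 0 to 0 to 1 with a mouse left out.

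Same-numbered mice are different animals, and their deviations did not go together (correlations of -0.0828 to 0.0686). With a replicate block the members called were 2, 1 and 2 in macrophages, 1, 0 and 2 in monocytes and 0, 1 and 0 in dendritic cells, for E0771-Res1 against parental, E0771-Res2 against parental and E0771-Res2 against E0771-Res1. Of all genes the block called 73, 187 and 334 in macrophages, 12, 379 and 288 in monocytes and 0, 2 and 2 in dendritic cells. Genes called among all tested ranged over the settings from 5 to 433, 50 to 579 and 117 to 698 in macrophages (54, 177 and 333 as reported), from 0 to 98, 17 to 615 and 45 to 533 in monocytes (0, 275 and 236) and from 0 to 13, 0 to 32 and 0 to 34 in dendritic cells (0, 0 and 1). The highest counts came without the low count filter, except in dendritic cells for E0771-Res1 against parental. With 2 or 3 mice per line and 4 genes of at most 298 UMIs, small differences in the rare genes were not detectable at this depth.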
